A study of Sus scrofa domesticus with 150 samples.

Results

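At the wound edge, the skin rim of an excisional wound, gene expression on day 7 after wounding was set against that on day 1 in domestic pigs. The samples were taken by their labels: the 6 edge samples of day 7 and the 6 edge samples of day 1, 12 of the 150 samples of the series. All were female pigs of a Yorkshire mix with full-thickness circular excisional wounds on the back under Telfa Clear and Tegaderm dressings, and no agent under test was applied to either day's wounds, though biopsy sites received a topical antibiotic. The labels give edge samples for 14 days and skin excised on day 0 as the unwounded reference. The day 0 samples were the entire excised tissue, not edge biopsies, so they can differ from edge samples in the tissues they hold. Both days came from animals 1323, 1324 and 1325, with wounds A and L sampled on day 1 and wounds E and H on day 7, so that each animal gave 2 wounds to each day and was kept in the test as a block. The wounds of a day are separate wounds but not separate animals, so p-values measure the spread between wounds within 3 animals, and the wound letter, the biopsy day and any change that comes with the position on the back cannot be told apart. RNA of each biopsy was enriched for poly-A and sequenced, and the deposited counts per gene are the measurement.

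As background, a skin wound first stops bleeding and draws in neutrophils and macrophages. Keratinocytes at its margin then divide and migrate over the defect, while fibroblasts and new blood vessels fill it with granulation tissue, a collagen-rich matrix that is later remodelled. An edge biopsy can hold intact and migrating epidermis, the dermis below it and part of the new tissue, so a level in it is an average over many cell types. In such bulk RNA, fewer cells of a type and less RNA per cell cannot be told apart.

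The 6 day 1 libraries held 13685366 to 18503290 counts and the 6 day 7 libraries 16637865 to 20502572. Levels below are CPM (a gene's count scaled to the same library total in every sample) after TMM normalization, a scaling that allows for libraries in which a few genes take much of the total. Every library correlated better with its own day than with the other (Pearson's r across genes on log2(1 + CPM), 0.948 to 0.973 on average with its own day and 0.903 to 0.947 with the other, a description since genes are not independent). On day 7, the library of animal 1323, wound H, was the least like its group, with an average r of 0.948. On day 1, the library of animal 1325, wound L, was the closest to the other day, with an average r of 0.947. Calls that depended on either library are given with the lists below.

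Of 14434 genes tested, 2379 were higher on day 7, 16.5% of those tested, and 1850 were lower, 12.8% of those tested (edgeR quasi-likelihood test with the animal as block, Benjamini-Hochberg adjusted p below 0.05). The rises were the larger changes, since 1231 genes rose and 232 fell at least 2-fold, and 105 rose and 4 fell at least 8-fold. The direction was the same in 3 of 3 animals for 2362 of the higher and 1849 of the lower genes, and the 6 values of each day did not overlap for 1164 and 747 of them. These counts cover only genes already called between the same samples and were not made over all genes tested. They are therefore no separate support for the calls. The median log2 fold change over all genes tested was -0.03. Scaling by the library size alone moved this median by -0.14, to -0.17, and turned the split to 1880 higher and 3682 lower genes, so that the higher share of the calls was 56.3% with TMM and 33.8% without. Small changes are therefore read here beside the median of all genes.

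Several of the genes that rose most encode secreted or surface proteins of matrix-forming fibroblasts. ASPN, which encodes the small proteoglycan asporin, stood at 2.40, 4.83 and 27.4 CPM on day 1 (the lowest, the median and the highest of 6, the order of all such 3 values in the text) and at 499, 666 and 936 CPM on day 7. The log2 fold change was 6.23 ± 0.68 SE, adjusted p = 9.94e-05. CTHRC1, a secreted protein of activated fibroblasts, went from 2.31, 3.94 and 12.9 CPM to 181, 241 and 270.4 CPM, a rise of 5.62 ± 0.43 SE, adjusted p = 1.15e-05. In day 0 skin ASPN had a median of 82.0 CPM and CTHRC1 one of 31.0 CPM. For 7 of the 10 genes that rose most the day 1 median was more than 2 times below that of day 0 skin, while for 3 it was within 2 times of it. The 6 day 7 values of CTHRC1 lay close together, and all were above the highest value in day 0 skin, 53.6 CPM. ITGA11, the alpha chain of a collagen receptor of fibroblasts, rose from 0.251, 0.706 and 1.95 CPM to 29.8, 67.8 and 78.8 CPM (6.05 ± 0.45 SE, adjusted p = 9.70e-06). ADAM12, a membrane-bound metalloproteinase, rose from 3.42, 7.65 and 26.7 CPM to 248, 289 and 348 CPM (4.96 ± 0.47 SE, adjusted p = 4.07e-05). SFRP2, a secreted modulator of Wnt signalling, rose from 2.77, 9.69 and 76.3 CPM to 349, 499 and 1684 CPM (5.34 ± 1.00 SE, adjusted p = 0.00273), with the highest day 1 value in animal 1325, wound L, and the highest day 7 value in animal 1323, wound H. Its log2 fold change was between 4.79 and 6.33 when single libraries were left out, the libraries of day 1 wounds L of animals 1324 and 1325 moving it most. The other genes of this group of 10 were PRSS35 (6.01), CCN4 (5.18), ITGA8 (5.13), TUBB3 (5.01) and C1QTNF3 (5.01), given as log2 fold changes. PRSS35 is listed from a protein match and ranged between 5.71 and 6.63 with single libraries left out, the library of day 1 wound A of animal 1323 moving it most. In the table, ASPN (ENSSSCG00025013709) lies on contig LUXX01021084.1 from 1397124 to 1424404, and CTHRC1 (ENSSSCG00025000856) on contig LUXX01004567.1 from 80638 to 92688.

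**Figure D1:**
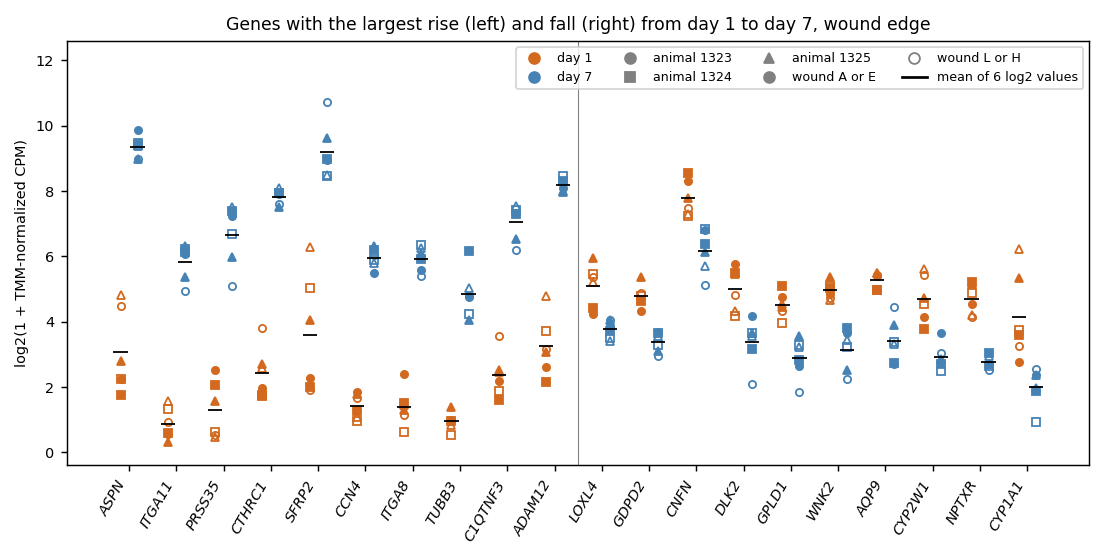
TMM-normalized level of each of the 20 named genes in every edge sample, as log2(1 + CPM) on the vertical axis, for day 1 (orange) and day 7 (blue). Symbols mark the animal, filled and open symbols the 2 wounds of an animal, and black lines the mean of the 6 values. The genes were picked for large changes with no overlap between days, so the separation of the 2 colours follows from the choice. The 10 genes that rose are shown with a wider gap, from 4.96 to 6.23 in log2 fold change, than for the 10 that fell, from -2.45 to -1.44.

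The 10 genes that fell most changed less, and the day 1 median of 8 of them was within 2 times of that in day 0 skin. CYP1A1, an enzyme that oxidises foreign aromatic compounds, was at 5.83, 11.8 and 74.2 CPM on day 1 and at 0.916, 3.53 and 4.83 CPM on day 7 (-2.45 ± 0.54 SE, adjusted p = 0.00671). Its day 1 values spread widely. All 20 genes of both groups were picked for size of change and for days that did not overlap, so their separation is no result. AQP9, a channel for water and glycerol found in neutrophils and keratinocytes, fell from 30.2, 41.5 and 43.7 CPM to 5.46, 9.12 and 20.8 CPM (-1.83 ± 0.27 SE, adjusted p = 7.62e-04). CNFN, which encodes cornifelin of the cornified envelope, fell from 149, 200.0 and 372 CPM to 33.6, 75.6 and 112 CPM (-1.57 ± 0.31 SE, adjusted p = 0.00369). LOXL4, of the lysyl oxidase family, fell from 17.7, 38.4 and 60.4 CPM to 9.57, 12.8 and 15.7 CPM (-1.44 ± 0.28 SE, adjusted p = 0.00366). WNK2, a kinase, fell from 24.6, 30.0 and 40.1 CPM to 3.76, 9.07 and 12.9 CPM, and in day 0 skin it had 39.7, 49.0 and 59.0 CPM. The other 5 of this group were NPTXR (-2.09), CYP2W1 (-1.97), GPLD1 (-1.74), DLK2 (-1.65) and GDPD2 (-1.45), as log2 fold changes. CYP1A1, CYP2W1, GPLD1 and LOXL4 were named by protein match, so related family members cannot be set apart with certainty. CYP1A1 and DLK2 were not called in the 4 against 4 samples left without animal 1324 or without animal 1325.

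Genes of the extracellular matrix rose as a group. All 19 collagen chains tested were higher on day 7, with a median log2 fold change of 2.67 beside -0.03 over all genes. COL1A1, a chain of type I collagen, had 1569, 5176 and 6868 CPM on day 1 and 19945, 23432 and 29117 CPM on day 7 (2.46 ± 0.34 SE, adjusted p = 4.37e-04), and the days did not overlap. In day 0 skin the same gene had 11445, 18662 and 45506 CPM, so that day 7 lay within the range of unwounded skin and all 6 day 1 values lay below it. COL5A1, whose chain regulates the width of collagen fibrils, rose from 75.2, 181 and 334 CPM to 2650, 3375 and 4055 CPM (4.33 ± 0.31 SE, adjusted p = 7.70e-06), and each day 7 value exceeded the highest day 0 value, 1302 CPM. COL11A1 rose from 0.130, 0.953 and 18.9 CPM to 13.6, 29.3 and 59.6 CPM (4.25 ± 0.88 SE, adjusted p = 0.0049), with values that overlapped in part and a log2 fold change of 3.82 to 4.99 with single libraries left out, moved most by day 1 wound A and day 7 wound H of animal 1323. Per kilobase of gene length, the mean levels of COL1A1 and COL3A1 were 833 and 1034 CPM on day 1 and 4159 and 3925 CPM on day 7, far above ASPN at 246 CPM per kilobase on day 7.

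Enzymes that modify and crosslink collagen followed, with 17 of 19 higher and LOXL4 lower, at a median log2 fold change of 2.29. LOXL2, a lysyl oxidase homolog, rose from 12, 19.2 and 39.0 CPM to 239, 309 and 533 CPM (4.01 ± 0.32 SE, adjusted p = 1.31e-05). LOXL1, a crosslinker of elastin, rose from 11.1, 17.2 and 22.5 CPM to 117, 173 and 200.5 CPM (3.31 ± 0.19 SE, adjusted p = 3.44e-06). The days did not overlap for either. LOXL4 thus went against its relatives LOX, LOXL1, LOXL2 and LOXL3, which were called higher. Of the matricellular proteins and proteoglycans, 17 of 20 were higher and none was lower (edgeR; none at an unadjusted p below 0.05 and none by DESeq2), with a median of 2.64. Members without a call were THBS1, at a log2 fold change of -0.49, VCAN at 0.78 and POSTN at 0.88. TNC, the glycoprotein tenascin C of healing tissue, was named after its values were seen, at 241, 323 and 562 CPM on day 1, 1162, 1367 and 2389 CPM on day 7 and 26.5, 41.8 and 59.4 CPM in day 0 skin. Of 14 elastic fibre genes, 10 were higher, led by EFEMP2 (2.89) and FBLN5 (2.75), both of which assist the assembly of elastic fibres, while ELN, the gene of elastin itself, had a log2 fold change of 0.56 and no call. Without TMM, 9 elastic fibre genes were higher and 1 was lower.

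Among proteases and their inhibitors, more genes rose than fell. Of 20 genes, 9 were higher and 2 were lower, with a median log2 fold change of 1.06. The lower count was below the share of all genes called lower, 12.8%. MMP2, a gelatinase made by fibroblasts, rose from 216, 397 and 621 CPM to 2192, 2561 and 3007 CPM (2.71 ± 0.20 SE, adjusted p = 9.02e-06), and the days did not overlap. MMP13, a collagenase, rose from 1.98, 7.21 and 23.4 CPM to 37.4, 67.4 and 283 CPM (3.14 ± 0.53 SE, adjusted p = 0.00147), with the highest value in animal 1324, wound H. MMP1, the interstitial collagenase that migrating keratinocytes produce, fell from 457, 595 and 849.5 CPM to 69.3, 238 and 385 CPM (-1.38 ± 0.33 SE, adjusted p = 0.011). All 6 day 7 values of MMP1 were below all day 1 values and still above those in day 0 skin, which ended at 0.584 CPM. MMP1 was not called in the 4 against 4 samples left without animal 1324 or without animal 1325. SERPINB2, an inhibitor of plasminogen activators, fell from 388, 475 and 594 CPM to 199.5, 262 and 582 CPM (-0.73 ± 0.21 SE, adjusted p = 0.024) and lost its call without any one of 3 day 7 libraries, those of wounds E and H of animal 1324 and wound H of animal 1325, with adjusted p up to 0.0634.

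Many genes of TGF-beta signalling and of contraction were also higher. In the TGF-beta and activin list, 8 of 16 genes were higher and none was lower (edgeR; 1 at an unadjusted p below 0.05 and none by DESeq2), with a median of 0.53, and 5 were called without animal 1325. A gene was called lower with the wounds of an animal summed, BAMBI, and another without day 1 wound A of animal 1323, NOG. TGFBI, an adhesion protein induced by TGF-beta, rose from 132, 237 and 355 CPM to 807, 1386 and 1543 CPM (2.50 ± 0.27 SE, adjusted p = 1.01e-04). INHBA, the activin A subunit, rose from 3.73, 10.5 and 28.5 CPM to 23.9, 53.6 and 139.8 CPM (2.39 ± 0.55 SE, adjusted p = 0.00857), with partly overlapping days. Among smooth muscle and myofibroblast contractile genes, 8 of 14 were higher, led by the tropomyosins TPM2 (2.18) and TPM1 (1.99), with a median of 0.98. ACTA2, the smooth muscle actin of myofibroblasts and named after its values were seen, went from 104, 118 and 159 CPM to 289.5, 307 and 340.0 CPM (1.36 ± 0.12 SE, adjusted p = 3.16e-05), against 285, 384 and 602 CPM in day 0 skin. MYH11, CNN1 and DES, which mark mature smooth muscle, had log2 fold changes of 0.26, 0.56 and -0.57 and no call. Without TMM, 8 contractile genes were higher and 1 was lower.

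Nearly all vessel markers were higher on day 7. Of 19 blood endothelial markers, 18 were higher, with a median log2 fold change of 1.28, and 11 were called higher without animal 1323. Their summed level was 352 to 1011 CPM on day 1, 1140 to 2176 CPM on day 7 and 492 to 755 CPM in day 0 skin, so the wounds of the 2 days did not overlap. APLNR, the apelin receptor of sprouting vessels, rose from 3.42, 10.4 and 18.4 CPM to 50.5, 92.4 and 132 CPM (3.16 ± 0.26 SE, adjusted p = 1.46e-05). ROBO4, a guidance receptor of endothelium, rose from 3.73, 7.77 and 16.0 CPM to 25.7, 41.2 and 50.7 CPM (2.13 ± 0.29 SE, adjusted p = 4.55e-04). VWF was the member without a call, at 0.569, 1.23 and 1.59 CPM on day 7, a low level in each library. Its symbol had 2 entries, and these values are of the entry used, so they may not cover the whole gene. Of 7 lymphatic endothelial markers, 6 were higher, while 3 were called without animal 1324 and 2 without animal 1325. RELN rose from 1.10, 2.09 and 5.26 CPM to 5.53, 14.8 and 20.7 CPM (2.66 ± 0.45 SE, adjusted p = 0.00167). STAB2 had at most 4 counts in a day 1 library, so its log2 fold change of 3.78 rests on few reads.

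**Figure D2:**
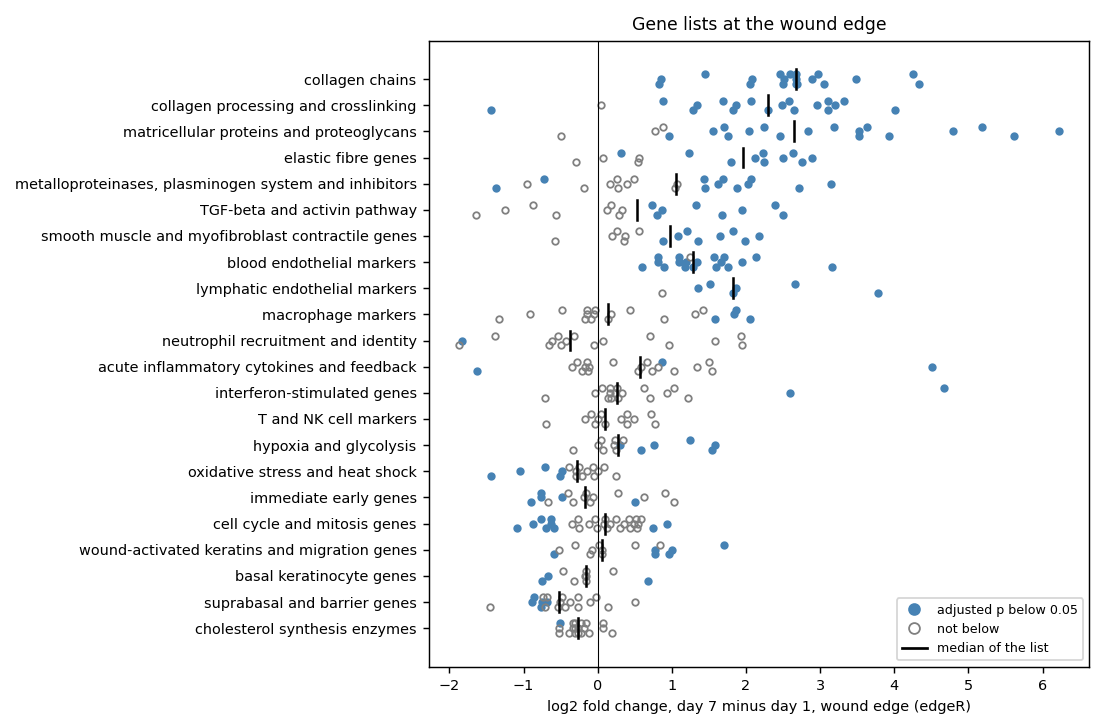
Log2 fold change from day 1 to day 7 at the wound edge (horizontal axis) of the tested members of 22 gene lists, 1 list per line. Filled points passed the adjusted p of 0.05, open points did not, and the black bar is the list's median, which runs from 2.67 for collagen chains to -0.52 for suprabasal and barrier genes.

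Few genes of acute inflammation passed the test. Of 16 neutrophil genes, AQP9 was lower and none was higher (edgeR; none at an unadjusted p below 0.05 and none by DESeq2), with a median of -0.37. CXCL8, the main neutrophil attractant, had 39.6, 233 and 1084 CPM on day 1 and 187, 584 and 3396 CPM on day 7 (1.93 ± 1.02 SE, adjusted p = 0.179), and the days overlapped widely. The summed neutrophil level was 593 to 2669 CPM on day 1, 826 to 5994 CPM on day 7 and 88.9 to 139 CPM in day 0 skin. Its highest value was in animal 1323, wound H, on day 7, the library that also held the highest CXCL8. Of 20 acute cytokine and feedback genes, 2 were higher and 1 was lower, with a median of 0.56. Both counts were below the shares of all genes, 16.5% higher and 12.8% lower. IL11, a cytokine of the interleukin 6 family made by stromal cells, went from 0.235, 0.623 and 1.98 CPM to 1.04, 12.9 and 112 CPM (4.50 ± 1.10 SE, adjusted p = 0.0114), and the log2 fold change was 3.12 without day 7 wound H of animal 1323 and 5.10 without day 1 wound L of animal 1324. ICAM1, an adhesion molecule for leukocytes, had a log2 fold change of 0.87 and lost its call without any one of 6 of the 12 libraries, wounds A and E of animal 1325, L and H of animal 1323 and A and H of animal 1324, with adjusted p up to 0.0922. IL1R2, the decoy receptor for interleukin 1, fell from 106, 119.9 and 202 CPM to 22.4, 31.3 and 131 CPM (-1.62 ± 0.34 SE, adjusted p = 0.00555).

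Among 19 macrophage markers, 4 were higher and none was lower (edgeR; 1 at an unadjusted p below 0.05 and 1 by DESeq2), with a median of 0.14, and 8 were higher and 1 was lower when the 2 wounds of an animal were summed. The lower one was ADGRE1, an adhesion receptor (-1.32 ± 0.57 SE, adjusted p = 0.103), which was also called lower without day 7 wound H of animal 1323 and by DESeq2. The 4 were the complement C1q chains C1QA, C1QB and C1QC and the lipid carrier APOE, a count near the share of all genes called higher, 16.5%. C1QB rose from 9.94, 48.2 and 70.8 CPM to 109, 177 and 236 CPM (2.06 ± 0.32 SE, adjusted p = 0.00103), and C1QA from 12.7, 54.1 and 84.0 CPM to 118, 176 and 234 CPM (1.87 ± 0.30 SE, adjusted p = 0.00111). Neither gene's days overlapped. General markers of the lineage such as CSF1R (-0.15), CD163 (-0.17) and MRC1 (0.18) had no call. The summed macrophage level was 1013 to 3580 CPM on day 1 and 2016 to 5708 CPM on day 7. No T and NK cell marker of 13 was called (edgeR; 1 at an unadjusted p below 0.05 and none by DESeq2), and leaving out wound A or wound H of animal 1323 gave up to 2 higher, and IL7R was called lower with the wounds of an animal summed. Of 11 B and plasma cell markers, JCHAIN (1.79) and MZB1 (1.36), both of antibody-secreting cells, were higher, JCHAIN not without either day 1 library of animal 1325 and MZB1 not without any one of 9 libraries. Those 9 were all but wounds A of animal 1323, L of animal 1324 and H of animal 1323. The count of 2 among 11 was near the share of all genes called higher. Of 18 interferon-stimulated genes, 2 were higher, with a median of 0.27. This count was below the share of all genes called higher. OASL went from 0.100, 0.497 and 1.41 CPM to 1.18, 18.2 and 50.4 CPM (4.67 ± 0.91 SE, adjusted p = 0.00341), high in both wounds of animal 1324 and in wound E of animal 1325, and the chemokine CXCL9 from 3.89, 5.71 and 11.6 CPM to 5.63, 41.7 and 64.8 CPM (2.59 ± 0.55 SE, adjusted p = 0.00551). Without wound A of animal 1323, the log2 fold change of OASL was 5.52 and 4 genes of the list were higher. Neither gene was called without animal 1324.

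Stress genes changed in both directions. Of 14 hypoxia and glycolysis genes, 6 were higher, with a median of 0.28, and without TMM 5 were higher and 1 was lower. ADM, the vasodilator adrenomedullin, rose from 5.82, 12 and 14.5 CPM to 20.6, 32.9 and 42.5 CPM (1.59 ± 0.18 SE, adjusted p = 1.17e-04). BNIP3, a mitochondrial protein of mitophagy, rose from 66.6, 88.4 and 160.2 CPM to 165, 269 and 418 CPM (1.53 ± 0.25 SE, adjusted p = 0.00117). The glycolytic enzymes GAPDH, PGK1, ENO1 and LDHA had log2 fold changes of 0.01, 0.05, 0.22 and 0.24 and no call. Of 16 oxidative stress and heat shock genes, 5 were lower and none was higher (edgeR; 1 at an unadjusted p below 0.05 and none by DESeq2), with a median of -0.27, and 2 were lower without animal 1324 and 3 without animal 1325. SOD2, the mitochondrial superoxide dismutase, fell from 842, 1336 and 2013 CPM to 306, 403 and 1005 CPM (-1.44 ± 0.25 SE, adjusted p = 0.00178), above the 91.2, 105 and 115 CPM of day 0 skin on both days. MT2A, a metallothionein, fell from 169, 304 and 402 CPM to 70.0, 136 and 204 CPM (-1.05 ± 0.24 SE, adjusted p = 0.00864). Of 16 immediate early genes, 4 were lower and 1 was higher, with a median of -0.17. FOSL1, an AP-1 subunit, fell from 30.3, 43.9 and 57.8 CPM to 17.5, 21.5 and 29.9 CPM (-0.89 ± 0.17 SE, adjusted p = 0.00275), and JUN rose from 145, 170.1 and 198 CPM to 186, 242 and 284 CPM (0.51 ± 0.10 SE, adjusted p = 0.00395). EGR3 fell as well (-0.77) and lost its call without wound E of animal 1324, with an adjusted p of 0.0503.

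Calls among epidermal genes went both ways and are read beside the shares of all genes, 16.5% higher and 12.8% lower. Of 15 wound-activated keratins and migration genes, 5 were higher and 1 was lower, with a median of 0.06 that turned to -0.09 without TMM, and 2 were higher without animal 1324 or without animal 1325. The lower count of this list was below the share of all genes called lower. The integrin chains ITGA5 (1.71) and ITGAV (1.00) led, followed by the 3 laminin 332 chains. ITGA5 went from 68.2, 103 and 148 CPM to 198, 287 and 677 CPM (1.71 ± 0.30 SE, adjusted p = 0.00205), and fibroblasts and endothelium make both integrins too. KRT6C, a keratin of activated keratinocytes, had 3950, 7871 and 13729 CPM on day 1, 4265, 11509 and 15645 CPM on day 7 and 445, 877 and 1038 CPM in day 0 skin, with no call between the days (0.51 ± 0.32 SE, adjusted p = 0.254). KRT6C and KRT6B are near-identical copies, so the split of reads between them is uncertain. TGFA, a ligand of the EGF receptor, was lower (-0.59) but not without any one of 7 libraries, wounds A and L of animal 1323, A and E of animal 1324, A and H of animal 1325 and H of animal 1323. Of 10 basal keratinocyte genes, PERP (-0.75) and KRT5 (-0.67) were lower and DST (0.68) was higher, counts near the shares of all genes. KRT5 went from 7317, 12427 and 15073 CPM to 3903, 8140 and 9546 CPM, and its call was lost without any one of 9 libraries (adjusted p up to 0.0998), that of PERP without any one of 7 (up to 0.101). The libraries without which PERP kept its call were wounds A and H of animal 1323, E of animal 1323, L of animal 1324 and L of animal 1325, and those for KRT5 were wound L of animal 1325, wound H of animal 1325 and wound E of animal 1323.

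Of 20 suprabasal and barrier genes, 5 were lower and none was higher (edgeR; none at an unadjusted p below 0.05 and none by DESeq2), with a median of -0.52. ALOXE3, a lipoxygenase of the skin barrier, fell from 56.3, 66.6 and 86.9 CPM to 16.3, 38.8 and 46.0 CPM (-0.88 ± 0.21 SE, adjusted p = 0.0105). ELOVL4, which lengthens the fatty acids of ceramides, fell from 152, 178 and 218 CPM to 50.3, 97.0 and 145 CPM (-0.86 ± 0.21 SE, adjusted p = 0.012). The days did not overlap for either gene. IVL, the envelope protein involucrin, was called higher with the wounds of an animal summed and without day 7 wound H of animal 1323. The count of lower genes in this list was 14 with the wounds of an animal summed, 3 without day 1 wound L of animal 1323, 10 without day 7 wound E of animal 1323 and 0 without animal 1324 or without animal 1325. KRT1 (-0.44) and KRT10 (-0.37), the main keratins of the upper layers, had no call. Of 19 enzymes of cholesterol synthesis, NSDHL was lower, from 26.0, 35.0 and 36.6 CPM to 19.5, 23.0 and 24 CPM (-0.50 ± 0.10 SE, adjusted p = 0.00451), and none was higher (edgeR; none at an unadjusted p below 0.05 and none by DESeq2). The list's median was -0.27, 8 of its genes were lower without TMM, and up to 4 were lower with single libraries left out, those of day 1 wound L of animal 1325 and day 7 wounds E and H of animal 1323 and H of animal 1324.

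Of 29 cell cycle genes, 7 were lower and 2 were higher, with a median of 0.09 that turned to -0.04 without TMM. All 7 lower genes serve DNA replication. PCNA, the clamp of DNA polymerase, fell from 112, 189.7 and 226 CPM to 55.4, 81.4 and 109.7 CPM (-1.08 ± 0.16 SE, adjusted p = 6.09e-04) with no overlap, and TYMS, which makes thymidylate, from 37.4, 61.3 and 70.3 CPM to 21.1, 28.9 and 42.3 CPM (-0.88 ± 0.13 SE, adjusted p = 7.31e-04). The helicase subunits MCM2 (-0.76), MCM3 (-0.59), MCM4 (-0.63), MCM6 (-0.70) and MCM7 (-0.62) were lower, and MCM5 (-0.34) was not called. The 2 higher genes both act in mitosis, but 2 of 29 was below the share of all genes called higher. The kinesin KIF20A rose from 15.8, 23.6 and 31.2 CPM to 29.9, 39.1 and 66.3 CPM (0.93 ± 0.24 SE, adjusted p = 0.0138) and the kinase PLK1 from 17.2, 23.1 and 32.9 CPM to 26.8, 37.7 and 58.9 CPM (0.75 ± 0.22 SE, adjusted p = 0.0232). PLK1 was not called without TMM, nor without any one of 4 libraries, day 1 wounds A and L of animal 1323, day 1 wound A of animal 1325 and day 7 wound E of animal 1325 (adjusted p up to 0.0673). The count of lower genes was 2 without animal 1324 and 4 without animal 1325. MKI67, a marker of dividing cells, had 48.3, 71.8 and 129 CPM on day 1 and 69.1, 96.4 and 132 CPM on day 7 (0.35 ± 0.24 SE, adjusted p = 0.293), and 28.1, 42.3 and 55.9 CPM in day 0 skin.

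Markers of other tissues in the biopsy varied from wound to wound. The 11 hair follicle markers found in the table summed to 3.37 to 1252 CPM on day 1 and 1.29 to 657 CPM on day 7, against up to 16887 CPM in day 0 skin. KRT27, a keratin of the inner root sheath, had 241 to 591 CPM in 4 of 6 day 1 libraries and 280.0 CPM in 1 of 6 day 7 libraries, wound E of animal 1325, and at most 2.29 CPM in the others. None of the 5 follicle genes tested was called (edgeR; 2 lower at an unadjusted p below 0.05 and 4 lower by DESeq2), and up to 3 were lower without day 1 wound L or day 7 wound E of animal 1325. The 8 adipocyte markers summed to 44.1 to 1654 CPM on day 1 and 210 to 3423 CPM on day 7, and PLIN4, a coat protein of lipid droplets, was called higher (2.63 ± 0.72 SE, adjusted p = 0.0192), though not without day 1 wound A of animal 1323 or day 7 wound E of animal 1324 (adjusted p up to 0.0644). Without day 1 wound L of animal 1324 its log2 fold change was 3.37, and single libraries of wounds A of animal 1323, L of animals 1324 and 1325, and E and H of animal 1324 set the count of higher adipocyte markers between 0 and 5. Of 6 Schwann cell markers tested, only NGFR (0.76) had a positive log2 fold change, and the median of the list was -0.44. NGFR was called higher and ERBB3 (-0.80) lower. The ERBB3 call was lost without day 1 wound A of animal 1325 or day 1 wound L of animal 1323. It was also lost without day 7 wound E of animal 1324. ERBB3 is also made by keratinocytes. Skeletal muscle markers were near the limit of detection, with 4 of 11 tested and a sum of at most 21.6 CPM, and TNNC2 (1.51) and TTN (1.28) were higher, TTN not without any one of 4 libraries, wounds A and E of animal 1325, A of animal 1324 and H of animal 1323. CKM was called lower without day 1 wound L of animal 1325. The 9 muscle regeneration genes summed to at most 1.64 CPM, with 5 of them at 0 in every day 1 library and 3 in every day 7 library. Of 4 melanocyte markers tested, SLC45A2 (1.47) was higher and was the only member with a positive log2 fold change. The median of this list was -0.41, and 1 member was called lower without TMM. None of 3 erythrocyte markers was called (edgeR; none at an unadjusted p below 0.05 and none by DESeq2), and their sum reached 40.7 CPM on day 1 and 64.7 CPM on day 7. The part of these tissues in the changes above was not tested.

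Day 0 skin of all 6 animals gives the level before wounding, set here without a test. It was the entire excised tissue rather than an edge biopsy. A difference in the tissue sampled therefore cannot be told apart from a change with wounding. Among the 2379 genes that rose, the mean of day 7 was over 2 times that of day 0 for 770, within 2 times of it for 1579 and more than 2 times below it for 30. On day 1, 507 of these genes had a mean more than 2 times below that of day 0. Of the 1850 genes that fell, 195 had a day 1 mean over 2 times that of day 0, and 1524 were within 2 times of day 0 on day 7. Both sets were chosen by the difference between days 1 and 7, so these counts follow in part from that choice. They were not set beside the same shares over all genes tested.

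The days between placed the 2 sampled days in the course of healing. On days 3, 5, 7, 11, 15 and 21 the same 3 animals were sampled as on day 1, and the other days came from animals 1326 to 1328. The median of COL1A1 went from 5176 CPM on day 1 through 9490 CPM (day 3) and 10383 CPM (day 5) to 23432 CPM on day 7, and reached 74684 CPM by day 21. CTHRC1 followed, from 3.94 to 20.6, 61.5 and 241 CPM on days 1, 3, 5 and 7. PLVAP, a protein of vessel wall openings, was at 56.2, 149, 146 and 194 CPM on these days, and most of the difference between the medians of days 1 and 7 was reached by day 3. MMP1 had its highest median on day 1, at 595 CPM, and stood at 134, 118 and 238 CPM on the 3 later days. SOD2 was at 1336, 929, 1136 and 403 CPM on the same 4 days.

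**Figure D3:**
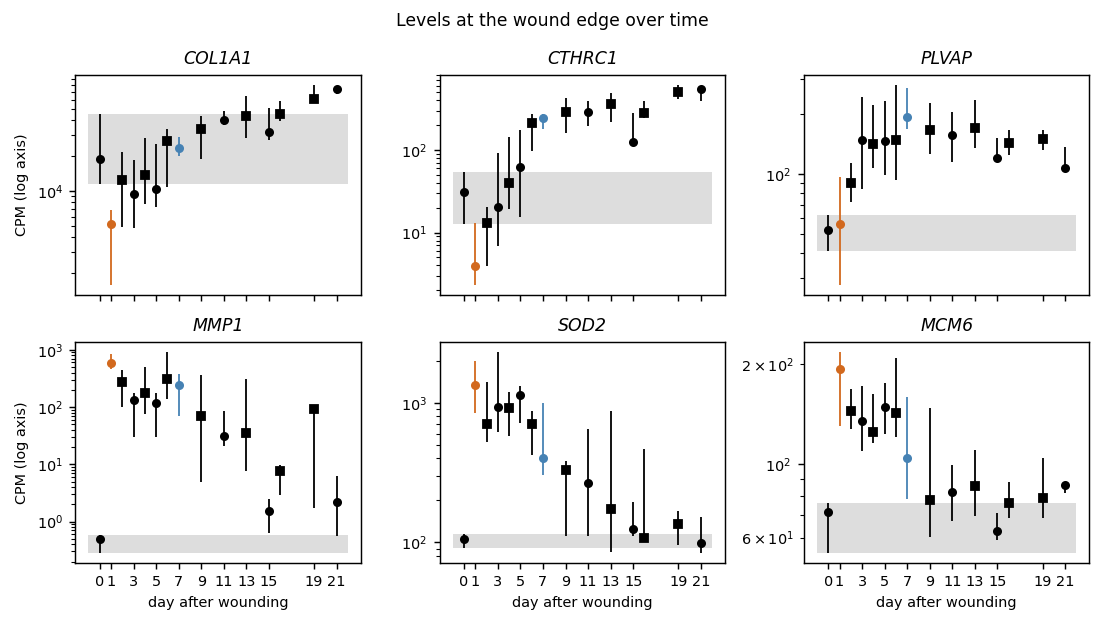
Level of 6 genes at the wound edge by day after wounding, as TMM-normalized CPM on a log axis. Points are medians of the samples of a day, lines run from the lowest to the highest sample, circles are days of animals 1323 to 1325 (and day 0), squares days of animals 1326 to 1328, and the grey band is the range of day 0 skin. The median of day 1 (orange) lies below that of day 7 (blue) for COL1A1, CTHRC1 and PLVAP, for example 5176 against 23432 CPM for COL1A1, and above it for MMP1, SOD2 and MCM6.

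The change at the edge was tested against the change in the center of the same wounds, in 12 edge and 12 center samples with the wound as block. Of 15246 genes tested, 1614 changed more positively at the edge than in the center, 10.6%, and 1295 more negatively, 8.49% (edgeR interaction term, adjusted p below 0.05). Without TMM the positive share of these calls went from 55.5% to 67.3%. The starting points differed: the 10 basal keratinocyte genes summed to 21583 to 43024 CPM at the day 1 edge and to 268 to 8972 CPM in the day 1 center, while the adipocyte markers summed to 44.1 to 1654 CPM at the edge and 4996 to 17466 CPM in the center. Their part in the differences was not tested.

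The cell cycle list showed the most negative differences. Of its 29 genes, 28 changed less positively at the edge, with median log2 fold changes of 0.09 at the edge and 2.65 in the center. KIF20A was at 1.81, 2.75 and 16.9 CPM in the day 1 center and 41.6, 57.1 and 65.3 CPM in the day 7 center (interaction -3.19 ± 0.56 SE, adjusted p = 0.00331). At the edge it was already at a median of 23.6 CPM on day 1. CDK1, the kinase that starts mitosis, had 1.51, 2.25 and 11.3 CPM in the day 1 center and 25.1, 34.3 and 36.9 CPM in the day 7 center, but 18.8, 24.8 and 35.7 CPM and 18.4, 26.2 and 40.6 CPM at the edge.

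Among called genes with a symbol and a mean of at least 10 CPM over the 24 samples, the most negative coefficients were those of MMP12 (-5.95), MMP1 (-5.83), COL7A1 (-5.62), LRRC15 (-5.31) and FRMD7 (-5.29), on the log2 scale. MMP1 fell at the edge, while in the center it went from 2.66, 6.62 and 212 CPM to 19.8, 214 and 345 CPM (-5.83 ± 0.93 SE, adjusted p = 0.00216). COL7A1, the anchoring fibril collagen of the basement membrane, was at 191, 227 and 280.3 CPM at the day 1 edge and 1.99, 3.89 and 102 CPM in the day 1 center, and the medians of day 7 were 651 CPM at the edge and 588 CPM in the center. FRMD7 had no CPM above 0 in any day 1 center sample and at most 10 counts in a day 1 edge library, so its coefficient depends on very few reads.

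The largest positive coefficients by the same rule were those of CA3, a carbonic anhydrase of muscle and fat (7.27), MYOC (6.79), MLXIPL (6.70), SGK2 (6.60) and LGALS12, a galectin of adipocytes (6.39). MYOC in the center went from 119, 237 and 339.9 CPM to 0, 2.77 and 20.0 CPM and at the edge went from 1.2, 9.12 and 36.0 CPM to 0.916, 6.97 and 76.5 CPM with no call (0.53 ± 0.70 SE, adjusted p = 0.602). All 8 adipocyte markers differed in the positive direction, with a median log2 fold change of -3.16 in the center, and ADIPOQ, the adipokine adiponectin, went from 1915, 4127 and 8635 CPM to 26.6, 521 and 757 CPM there. Of 19 blood endothelial markers, 10 changed more positively at the edge. KDR, the main VEGF receptor, had 16.8, 28.7 and 53.8 CPM at the day 1 edge and 101, 127 and 162 CPM in the day 1 center, and 80.2, 97.8 and 136 CPM and 115, 148 and 233 CPM on day 7 (interaction 1.49 ± 0.32 SE, adjusted p = 0.00766). Of 18 interferon-stimulated genes, 9 changed more positively at the edge, with medians of 0.27 at the edge and -1.16 in the center. Among the collagen chains, 7 changed more positively and 4 more negatively at the edge, and COL1A1 was not among them (interaction -0.58 ± 0.36 SE, adjusted p = 0.296).

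**Figure D4:**
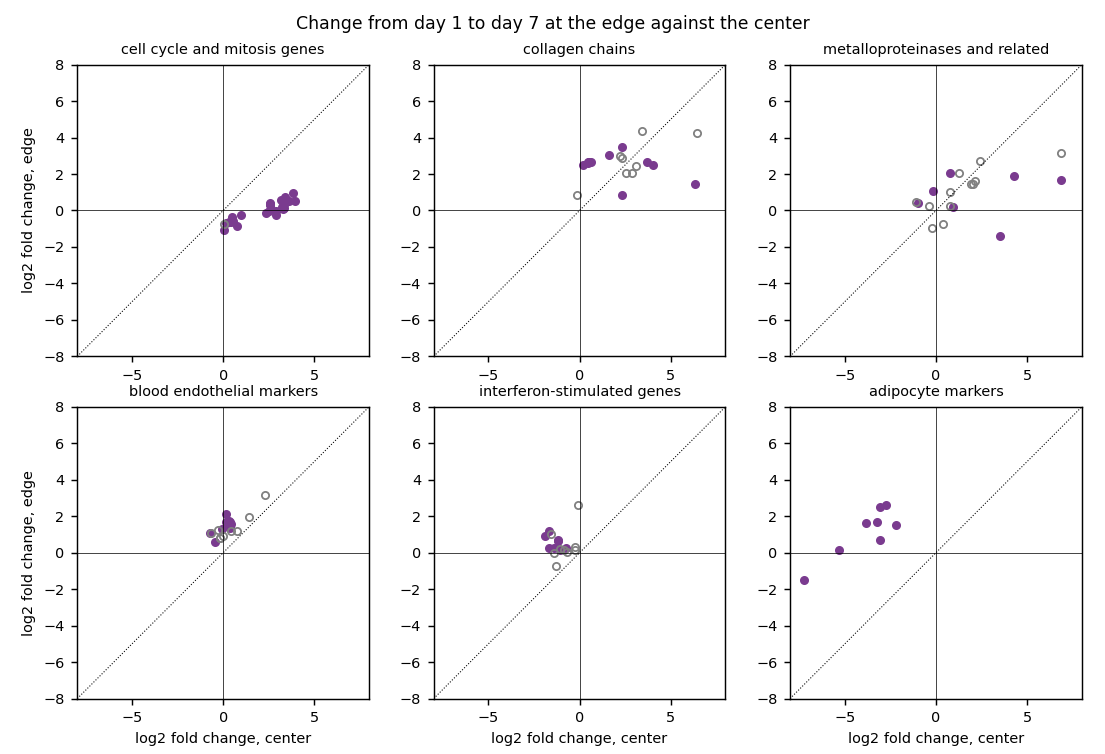
Log2 fold change from day 1 to day 7 at the edge (vertical) against that in the center (horizontal) for the members of 6 lists that were tested in both places, with a dotted line of equal change. Filled points differed between edge and center at an adjusted p below 0.05. Cell cycle genes lie to the right of the line, with medians of 0.09 at the edge and 2.65 in the center, and adipocyte markers to its left.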

How the data were processed

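RNA of 150 pig skin and wound biopsies was enriched for poly-A and sequenced. The provider removed adapter-containing and low-quality reads, aligned the rest and counted them per gene, and the authors deposited these counts per gene without normalization. The aligner, the counting tool, its use of strand and the genome build are not given in the sources used here. The deposited gene length in bases served to give levels per kilobase, and deposited FPKM values were not used. A symbol was given in the table for 12300 genes and was read from the protein match of the description for 9387 more, leaving 8774 without one. Where a symbol had several entries, the one named in the name column, then the one with the larger mean, was used, so paralogs are uncertain.

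Day, location, animal and wound came from the labels. Edge samples of day 7 and day 1 were compared with the two-sided quasi-likelihood test of edgeR 4.0.16 (R 4.3.3), on genes that passed filterByExpr (at least 10 counts, total 15), with TMM factors, Benjamini-Hochberg adjustment at 0.05 and the animal as replicate block, because each animal gave wounds to both days. Deviations from the day means correlated at r = 0.184, 0.307 and 0.461 across genes within an animal and -0.300 to 0.036 between animals. The day means come from the same 3 animals, so negative values between animals follow in part from the centering. SE is the absolute log2 fold change divided by the square root of F. The interaction used edge and center samples with the wound as block. Displayed CPM used 1 normalization over all 150 samples. Tables were made with pandas 2.3.3 and numpy 2.4.6 and figures with matplotlib 3.10.9, in Python 3.11.15, and the fits were tested on simulated counts.

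The comparison and the 30 gene lists were chosen with earlier results of these data known, so the lists are described by counts and medians without a test. Named genes are the 10 with the largest rise and the 10 with the largest fall among called genes with a symbol, a mean of at least 10 CPM and no overlap between days, in each list up to 2 called members per direction with members needed to describe the list, and the 5 largest interaction coefficients per direction among called genes with a symbol and a mean of at least 10 CPM over the 24 samples. All others were named after their values were seen. Alternatives were other size factors, no TMM, DESeq2 1.42.0, no filter, no block, summed wounds, all 72 edge samples, and each library or animal left out. Total counts of 13685366 to 20502572 per edge library limit the precision of genes with few counts. A gene of the marker lists is not reported here.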

Additional observations from a re-analysis of the deposited data

Results flagged for a closer look

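In 8 of 166 groups of 6 samples, 1 edge sample stood apart from the other 5, by the ratio of its gap to the nearest sample to the whole range on log2(1 + CPM), above Dixon's critical value for 6 samples. Chance gives about 1 in 20 such groups, or 8.3 of 166. On day 7 the ratio was 0.626 for MMP1, 0.73 for ALOXE3, 0.718 for NSDHL and 0.746 for ERBB3, each with animal 1323, wound H, as the low sample. It was 0.662 for MMP13, with wound H of animal 1324 as the high sample, and 0.697 for TGFBI, with wound E of animal 1325 as the low sample. On day 1 it was 0.658 for FRMD7, with wound L of animal 1323 high at no more than 10 counts, and 0.747 for LGALS12, with wound L of animal 1325 high.

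The change from day 1 to day 7 differed between edge and center for 33 of 83 named genes (edgeR interaction term, adjusted p below 0.05), beside 2909 of all 15246 genes tested. The change is given as its value at the edge minus that in the center, on the log2 scale. It was less positive at the edge for NPTXR (-1.06), AQP9 (-1.33), CCN4 (-2.53), ITGA8 (-1.92), C1QTNF3 (-1.79), MMP1 (-5.83), PCNA (-1.15), TYMS (-1.75), KIF20A (-3.19), PLK1 (-2.82), MMP12 (-5.95), COL7A1 (-5.62), LRRC15 (-5.31) and FRMD7 (-5.29). It was more positive at the edge for LOXL4 (1.31), ITGA11 (1.61), SFRP2 (2.41), ADAM12 (1.66), ADM (2.20), BNIP3 (1.93), MT2A (1.2), OASL (5.69), C1QB (2.01), C1QA (1.65), ROBO4 (1.98), RELN (2.01), PLIN4 (5.58), NGFR (5.35), CA3 (7.27), MYOC (6.79), MLXIPL (6.70), SGK2 (6.60) and LGALS12 (6.39). Of these, CA3, MYOC, MLXIPL, SGK2, LGALS12, MMP12, COL7A1, LRRC15, FRMD7 and MMP1 were named for the size of this difference, so their calls here follow from that choice. The others were named for their change at the edge in the same samples, which is a part of this difference. Their calls therefore also follow in part from the choice, and the count among named genes is no separate support.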

How the results depend on the processing

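Fewer than 3 animals left fewer calls: without animal 1324, 1277 genes were higher and 386 lower, and without animal 1325, 1460 and 874, against 2379 and 1850, with 4 against 4 samples in place of 6 against 6. Library size without TMM gave 3682 lower genes, while the higher genes, 1880, stayed within 1.5 times. Leaving out single libraries gave 1991 to 2471 higher and 1316 to 2335 lower genes, and leaving out single wounds gave 2069 to 3267 genes whose change differed between edge and center, against 2909. DESeq2 gave 2752 higher and 2323 lower genes and contained all calls of edgeR, and no filter on low counts gave 2333 and 1436. The fit with no replicate block gave 2275 higher and 1771 lower genes, of which 2206 and 1672 were shared with the fit that has it. With the wounds of an animal summed, in the fit with the replicate block, 2490 and 1854 were found, 2089 and 1384 of them shared. Without the block, ICAM1, SERPINB2, TGFA and NGFR were no longer called among the 74 genes named for the edge. In all alternatives run, no named gene changed direction, and a call was lost in 133 of 1628 gene and setting pairs. The losses were concentrated: of the 74 genes named for the edge, 26 lost their call without animal 1325 and 24 without animal 1324. A further 9 pairs were lost without animal 1323 and 11 in the fit of all 72 edge samples. Depth limits genes with few counts on day 1, such as STAB2 and FRMD7, whose folds depend on the prior count.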
